A study of Homo sapiens with 40 samples.

Results

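Enzalutamide, labelled MDV3100 in this series, was examined in the replicate 1 arrays of LNCaP clones 9, 10, 14 and 15, which are 8 of the 40 arrays of the series. LNCaP is a human prostate cancer cell line that depends on androgen signalling. The 4 clones were taken because androgen-induced genes were still lower under the drug in this set of arrays. That choice rests on the drug contrast itself, so the contrast is described here by its values and carries no test. Each clone gave 1 array after 24 h in 10 µM MDV3100 and 1 array after 24 h in 0.1% DMSO, the solvent, and the arrays were paired within a clone. Cells had been plated 3 days earlier in RPMI-1640 medium with 10% FCS, so serum hormones were present in both arms. The labels give all 7 clones of the series as insensitive to the drug, and each number stands for 1 clone. The 3 control lines, given as sensitive, carry the titles D+E-, D+R- and M+R-, which the labels do not explain, and they are named control 1, control 2 and control 3 below. Expression is a MAS5 signal per probe set, and a response is the MDV3100 minus DMSO difference on the log2(signal + 16) scale, over 11853 genes. That scale understates the change of dim genes.

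Enzalutamide binds the ligand pocket of the androgen receptor, blocks androgen from it and keeps the receptor from the nucleus and from DNA. In luminal prostate cells the receptor turns on secreted proteases of the kallikrein family, membrane transporters, glycosylation enzymes and its own regulators, and it turns off a smaller group of genes. Androgen also drives entry of these cells into DNA synthesis.

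The arrays with the same clone labels in replicate 2 did not resemble those described here. After each gene's mean over the 40 arrays was subtracted, the 8 arrays correlated with their own label in replicate 2 at r = -0.641 to -0.238 across genes, with all 8 below 0. Against the other treatment of the same clone in replicate 1 they gave r = 0.555 to 0.807, and the best match of all 8 lay among these 4 clones in replicate 1. Each r runs across genes, and genes do not replicate one another. The responses of clones 9, 10, 14 and 15 correlated with those of their own label in replicate 2 at -0.167, 0.0808, -0.141 and 0.21. ETV1, an ETS transcription factor, had DMSO signals of 3.3 to 43.5 in these 4 clones in replicate 1 and of 1172 to 1746.1 under the same labels in replicate 2 (brightest probe set). The control labels differed too, with r = 0.38 and 0.065 for the DMSO and MDV3100 arrays of control 1, -0.141 and -0.423 for control 2 and -0.203 and 0.0919 for control 3. ETV1 in DMSO was 1293.3, 1162.7 and 1344.5 in controls 1, 2 and 3 in replicate 1, and 1367.1, 0.3 and 5.4 in replicate 2. All groups here follow the labels, and whether labels were exchanged between samples was not tested. Results are therefore given for each replicate set apart, and replicate 2 serves as arrays that the selection did not use. Whether replicates came from separate cultures is not in the labels. A p-value here reflects the spread of responses between lines or clones within 1 replicate set. With 1 array per line and treatment in a set, the spread within a line was not measured.

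The 8 arrays carried the luminal identity of LNCaP and almost no signal of basal or blood genes. Some neuroendocrine and stromal genes did give signal. Of 9 luminal genes 8 reached the filter signal of 12.1 on every array, and the summed signal of the list was 12755.9 to 13502.8 in DMSO and 12416.6 to 15402.7 in MDV3100. The exception was the keratin KRT19. The 3 basal genes measured summed to 7.1 to 14.3 in DMSO and 6.2 to 23.4 in MDV3100, and none reached the filter on all 8 arrays. The 5 blood genes summed to 11.8 to 21.5 and 11.2 to 31.5, also with none past it. Neuroendocrine genes (2 of 7 past the filter) summed to 137.7 to 179.4 and 149.9 to 201.1, and stromal genes (2 of 7) to 259.8 to 497.3 and 270.4 to 501. The actin 3' to 5' signal ratio, which rises as RNA degrades, averaged 4.07 ± 0.321 in DMSO and 4.64 ± 0.533 in MDV3100 (SD, n = 4 each). It was higher under the drug in each clone, least in clone 9 (4.52 and 4.56) and most in clone 15 (4.05 and 5.34). The MDV3100 array of clone 15 stood apart, with a median signal of 18.4 against 11.2 to 13.3 on the other 7 arrays, and the SD of its responses over all genes was 0.389 against 0.236 to 0.265 in the other clones. The part of RNA quality in the results was not tested.

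KLK2 and KLK3, neighbouring kallikrein genes on chromosome 19, are the classical androgen targets of prostate cells. The RefSeq promoters (GRCh38.p14, plus strand) of both hold a match to the androgen receptor half-sites GNACA and NGTNC with 3 bases between them, searched on both strands (in reverse GNACN and TGTNC) in the 250 bases before each start. They are shown because the kallikrein results below open with these genes. The KLK2 stretch is chr19:50873224-50873316, 215 to 123 bases before the gene start, and the KLK3 stretch is chr19:50854706-50854798, 209 to 117 bases before it. Capitals mark the match.
KLK2: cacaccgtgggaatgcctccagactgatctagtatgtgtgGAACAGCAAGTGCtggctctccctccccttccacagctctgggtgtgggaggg
KLK3: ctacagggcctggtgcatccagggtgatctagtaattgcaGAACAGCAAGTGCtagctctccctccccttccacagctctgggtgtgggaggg
The capital letters are the same in both, and 74 of the 93 bases (79.6%) are identical. The pattern was found in 134 of 9750 promoters of measured genes (1.37%) and in 3 of 26 promoters of androgen-induced genes (11.5%), those of KLK2, KLK3 and CENPN. It was in none of 37 promoters of the genes that were lower by at least 0.5 in all 4 clones. A match describes letters only and is not a binding site.

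KLK2, a trypsin-like protease of prostate fluid, had signals of 828.7, 770.8, 963.6 and 1717.6 in DMSO in clones 9, 10, 14 and 15, and 123.8, 126.9, 196.5 and 1397.6 in MDV3100. The treated arrays of clones 9, 10 and 14 lay below all DMSO arrays, while the treated clone 15 array lay inside the DMSO range. The responses were -2.60, -2.46, -2.20 and -0.29. KLK3, which encodes prostate-specific antigen, went from 1209.7 to 506.6, from 577.4 to 215.9, from 500.7 to 209.5 and from 995.8 to 980.7 in the same order. Its responses were -1.23, -1.36, -1.20 and -0.02, so clone 15 showed almost none. The DMSO signals of KLK3 in these clones, 500.7 to 1209.7, lay below those of the control lines, which were 3551.4 to 3659.4. In the control lines, whose arrays the selection did not use, KLK2 fell by 1.98 ± 0.175 (SE, n = 3 lines; limma adjusted p = 0.000258), and KLK3 differed by -0.74 (adjusted p = 0.0962). KLK4, a protease that activates other kallikreins, went from 331.6 to 127.9, from 518.5 to 144.1, from 551.2 to 200.7 and from 845.2 to 567.7. Its response was again smallest in clone 15, at -0.56 against -1.27 to -1.74, on the brightest probe set. The other KLK4 probe sets past the filter had highest responses of 0.06, 0.40, 0.15 and -0.11. A fall of at least 0.5 in every clone thus holds for the brightest one alone.

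**Figure D1:**
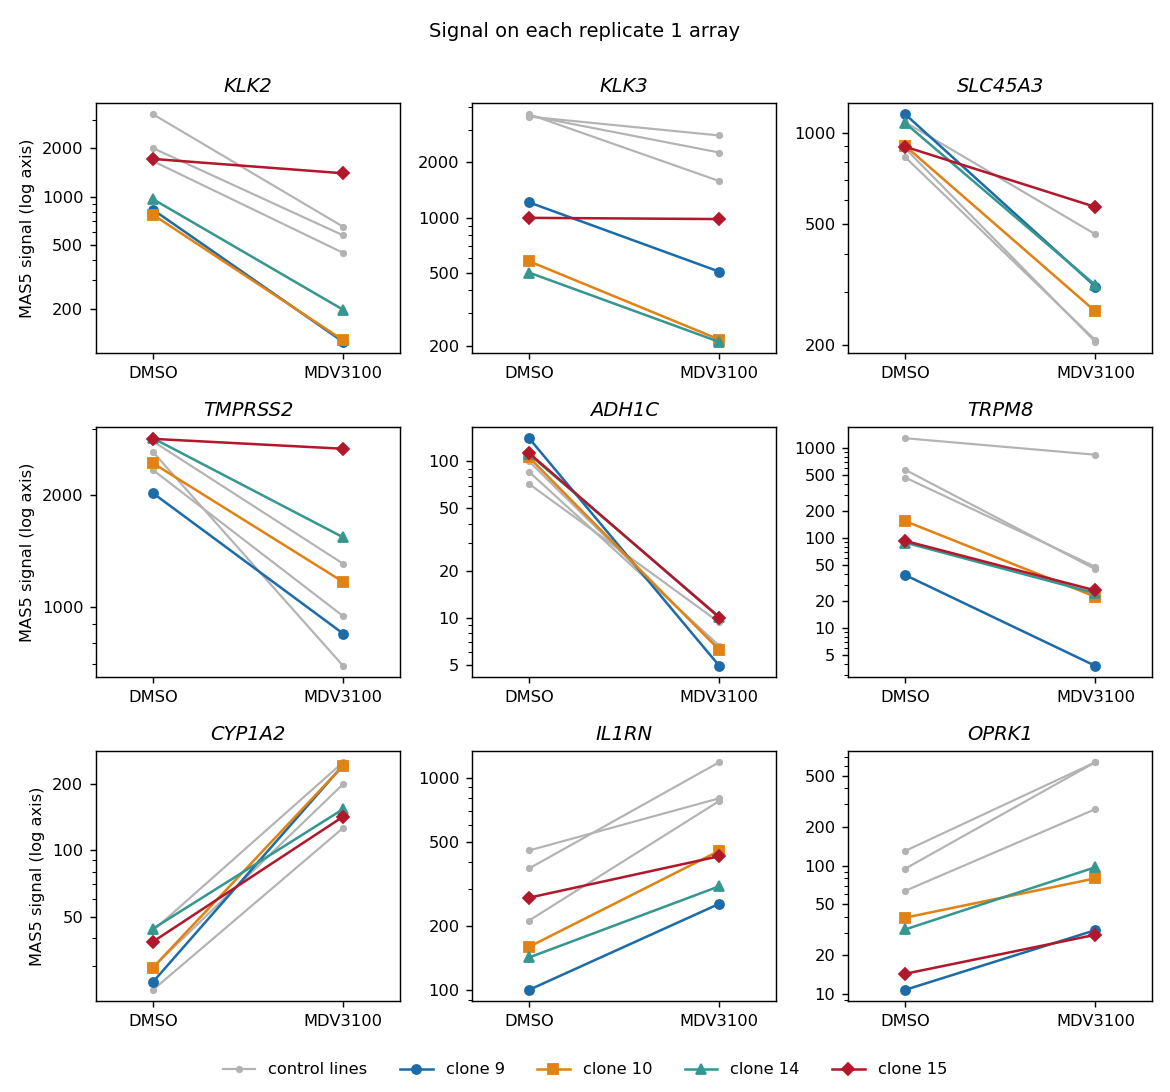
MAS5 signal on a log axis for named genes on the DMSO and MDV3100 arrays of clones 9, 10, 14 and 15 and of the 3 control lines, replicate 1, with 1 point per array and a line joining the arrays of a clone or control line. KLK2 ends between 123.8 and 196.5 in clones 9, 10 and 14 and at 1397.6 in clone 15, while ADH1C ends between 4.9 and 10.1 in all 4 clones.

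Of the membrane proteins among the androgen targets, SLC45A3 and TMPRSS2 had their smallest response in clone 15 and TRPM8 did not stand apart there. SLC45A3, a sugar transporter known as prostein, went from 1148.4 to 311.5, from 904 to 258.1, from 1074 to 314.9 and from 898.3 to 569 in clones 9, 10, 14 and 15. Its groups did not overlap, and its responses were -1.83, -1.75, -1.72 and -0.64 on the brightest probe set. The other SLC45A3 probe set had responses of -1.41 to -0.04. TMPRSS2, a membrane serine protease, went from 2019.9 to 845.5, from 2432.8 to 1165.2, from 2839.8 to 1536.4 and from 2828.8 to 2660.1. The clone 15 response of -0.09 set it apart from -1.24, -1.05 and -0.88 on the brightest probe set. This depends on the probe set. The next brightest TMPRSS2 probe set had responses of -1.42 to -0.66, and the dimmest past the filter -1.49 to -0.01. In the control lines both genes fell, by 1.72 (limma adjusted p = 0.00133) and 1.42 (adjusted p = 0.0044). TRPM8, a cold-sensing calcium channel, kept its difference in clone 15. Its signals were 38.9, 154.6, 89.2 and 93.2 in DMSO and 3.8, 22.3, 24.4 and 26.2 in MDV3100, with responses of -1.47, -2.16, -1.38 and -1.37. The fall of TRPM8 was not particular to these clones, since clones 1, 19 and 24 had -1.58, -1.79 and -1.91. C1orf116, an androgen-regulated gene of unclear function, had 1228 to 1386.8 in DMSO and 391.2 to 485.9 in MDV3100 in clones 9, 10 and 14, and went from 1333.6 to 923.4 in clone 15. The other C1orf116 probe sets had responses of -1.36 to -0.38 and of -1.23 to -0.37. FKBP5, a cochaperone of steroid receptors, had a narrow response of -0.41, -0.45, -0.50 and -0.26 on its brightest probe set. The signals of that probe set were 1812.7 to 2024.1 in DMSO and 1348.7 to 1518.4 in MDV3100, and the groups did not overlap. Its other probe sets past the filter had wider responses, of -0.92 to -0.41 and of -1.08 to 0.08.

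Of the 40 androgen-induced genes listed, 34 passed the filter on low values. Of these, 23 had a negative response in all 4 clones (67.6%) against 11.5% of all genes, and 0 had a positive response in all 4. A total of 8 were lower by at least 0.5 in every clone, against 0.363% of all genes, among them RAB3B, a secretory vesicle GTPase (-1.04, -0.92, -1.20 and -0.80), and PTGER4, a prostaglandin receptor (-0.78, -0.71, -1.14 and -0.84). Since the clones were chosen by this response, nothing is read from these shares. The mean over the 34 was -0.72, -0.70, -0.69 and -0.30 in clones 9, 10, 14 and 15. The control lines had -0.74, -0.73 and -0.71. By this mean, clone 15 is the member nearest to the edge of the selection. The nearest clone outside it is clone 24 with -0.08, followed by clones 19 and 1 with -0.05 and -0.04. Over all genes the order was another. The responses of clone 15 correlated at r = 0.633, 0.485 and -0.0586 with those of clones 1, 19 and 24. With clones 9, 10 and 14 they gave r = -0.0866, 0.198 and 0.4, and with controls 1, 2 and 3 0.0771, -0.21 and 0.517. Some listed genes did not share the direction. ACP3, prostatic acid phosphatase, had responses of 0.52, 0.57, 0.52 and -0.54, and the metalloreductase genes STEAP1 and STEAP2 had medians of 0.05 and 0.01. ZBTB10, a zinc finger repressor, and MAF, a leucine zipper transcription factor, had medians of -0.80 and -0.69 here, and control line differences of 0.07 and 0.13, neither called by limma (adjusted p = 0.916 and 0.844).

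**Figure D2:**
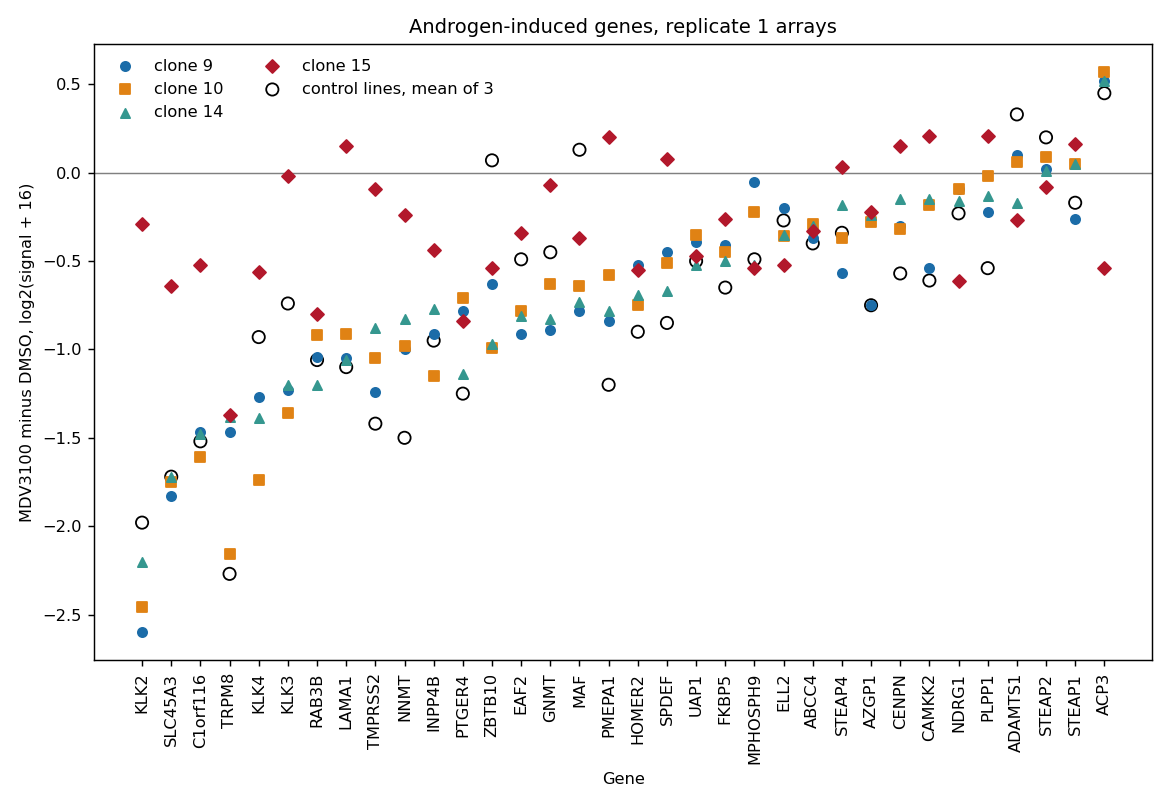
Response to MDV3100 (log2 difference, y axis) of each of the 34 measured androgen-induced genes (x axis, ordered by their median), replicate 1, with a filled symbol per clone and an open circle for the mean of the 3 control lines. KLK2 lies at -2.60, -2.46 and -2.20 in clones 9, 10 and 14 and at -0.29 in clone 15, whose diamonds are the highest of the 4 clones for most genes on the left.

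Most androgen targets had a smaller difference in clone 15 than in the other 3 clones. Of 30 members with a negative response in clones 9, 10 and 14, 23 had their smallest difference in clone 15, 7 were not negative there, and 3 had their largest difference there. LAMA1, a laminin chain, had -1.05, -0.91 and -1.06 against 0.15, and PMEPA1, a membrane protein that dampens TGF-beta signalling, had -0.84, -0.58 and -0.78 against 0.20. ZBTB16, a zinc finger transcription factor induced by androgen and glucocorticoid, went from 161.7 to 24.4, from 213.9 to 86.9 and from 259.2 to 115.6 in clones 9, 10 and 14, and from 252 to 257.2 in clone 15. Over all genes, 70 were lower by at least 0.5 in clones 9, 10 and 14, of which 65 were also negative in clone 15 and 43 lower there by at least 0.5. Their median response was -0.87, -0.79, -0.88 and -0.56. The 60 genes that were higher by that size in clones 9, 10 and 14 had medians of 0.79, 0.75, 0.81 and 0.37, and 23 of them passed the size in clone 15. The 30 members and the sets of 70 and 60 genes were picked by their values in clones 9, 10 and 14. That choice by itself favours a smaller difference in clone 15, so the size of the gap is not read from these sets. The clone 15 MDV3100 array is the one with the high median signal and actin ratio given above, and the part of this in the smaller responses was not tested.

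**Figure D3:**
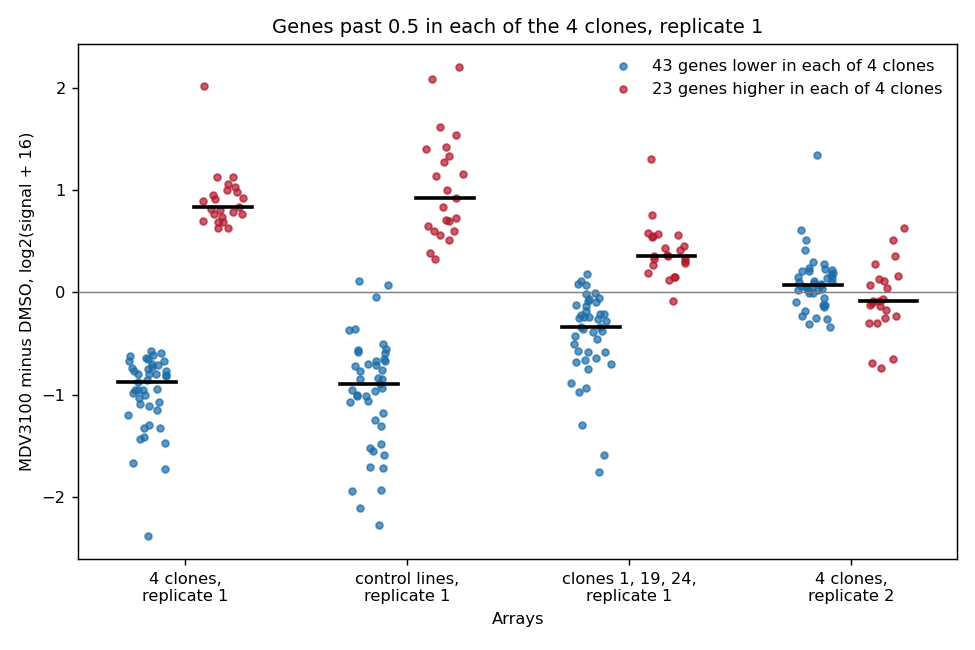
Responses to MDV3100 (log2 difference, y axis) of the 43 genes lower and 23 genes higher by at least 0.5 in all 4 clones of replicate 1, with 1 point per gene and a bar at the median. Points are the median over the 4 clones at the left and the mean over each other group of arrays, and the bars of the 43 genes lie at -0.88 in the 4 clones, -0.90 in the control lines, -0.34 in clones 1, 19 and 24 and 0.07 in the same clone labels of replicate 2. The genes were picked by the values at the left, which by itself makes those values large.

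Several genes outside the androgen list had large differences. ADH1C, a class I alcohol dehydrogenase that also oxidises retinol, had signals of 140.7, 106.1, 111.2 and 112.9 in DMSO and 4.9, 6.2, 10.1 and 10 in MDV3100. It averaged 117.7 ± 15.6 and 7.80 ± 2.65 (SD, n = 4 each), and all treated arrays lay under the filter signal of 12.1, which limits the size of the difference. The responses were -2.91, -2.46, -2.28 and -2.31, so clone 15 did not stand apart. The median of -2.38 was close to that of KLK2 (-2.33), and their order turned with the pseudocount, at -3.63 and -2.44 with 1 and -1.82 and -2.23 with 32. ADH1C fell by 2.11 in the control lines (limma adjusted p = 0.000235) and differed by -1.66 to -1.53 in clones 1, 19 and 24. Thus it was lower in clones whose androgen targets had means near 0. WWTR1, the Hippo pathway coactivator TAZ, went from 63 to 9.2, from 71.6 to 11, from 91.6 to 16.6 and from 41 to 18.2, with responses of -1.65, -1.70, -1.72 and -0.74. ST6GALNAC1, which adds sialic acid to mucin-type sugars and makes the sialyl-Tn antigen, went from 63.6 to 6.7, from 51.2 to 11.6, from 56.8 to 13.1 and from 54.1 to 16.8. Neither gene had overlapping groups. MSMB, a major secreted protein of prostate fluid, had 44.7 to 72.7 in DMSO and 8 to 15.7 in MDV3100. PHLDB2, a scaffold of cortical microtubules, had 31.7 to 74 in DMSO and 6.2 to 23.8 in MDV3100, without overlap. With a pseudocount of 1 the medians of dim genes were larger, such as -2.26 against -1.33 for PHLDB2 and -2.28 against -1.43 for TRPM8. DPP4, a cell surface peptidase, went from 133.4 to 44.7, from 255.7 to 136.1, from 322.7 to 141.4 and from 111.5 to 33.3. The DMSO and MDV3100 ranges of DPP4 overlapped between clones, although each clone was lower under the drug. ELOVL7, a fatty acid elongase, had responses of -1.40, -1.11, -1.03 and -1.11 and was the 1 member of the lipid synthesis list past 0.5 in all 4 clones.

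Among genes with higher signal under the drug, CYP1A2 led, on its brightest probe set alone. Its other probe set lay under the filter and had responses of -0.05 to 0.02. CYP1A2 is a drug-metabolising cytochrome P450 controlled by the aryl hydrocarbon receptor. Its signals were 25.3, 29.4, 44.1 and 38.5 in DMSO and 242.9, 241.5, 153.6 and 142 in MDV3100. The groups were far apart, and the responses of 2.65, 2.50, 1.5 and 1.54 were larger in clones 9 and 10 than in clones 14 and 15. CYP1A2 rose by 2.09 in the control lines (limma adjusted p = 0.000235), and clones 1, 19 and 24 had differences of 0.87 to 1.85. Of the 6 listed targets of the same receptor, 3 passed the filter, and the other two, the quinone reductase NQO1 and the ADP-ribosyltransferase TIPARP, had medians of 0.23 and 0.04. IL1RN, the interleukin-1 receptor antagonist, went from 100.6 to 255.4, from 160.3 to 453.1, from 142.8 to 308.7 and from 272.8 to 427.5. Its median of 1.13 was 0.66 with the mean of all its probe sets. ADRA2A, an adrenergic receptor, went from 47.4 to 107.1, from 277 to 533.6, from 214.8 to 550 and from 42.1 to 126.4. Its DMSO level was highest in clones 10 and 14 and low in clones 9 and 15, while the responses were alike at 0.96, 0.91, 1.29 and 1.29. SOX9, an HMG-box factor active in progenitor cells, showed the same split, with DMSO signals of 231.1, 782.8, 741.6 and 285 and MDV3100 signals of 596.2, 1380, 1127.8 and 590.2. LEF1, a nuclear effector of Wnt signalling, went from 150.7 to 442.3, from 452.6 to 833.2, from 272.4 to 566 and from 274.1 to 326.9. The remaining genes of the highest medians were C16orf89 (1.06), LRATD1 (1.03), the potassium channel KCNU1 (1.00), the synaptic organiser CBLN2 (0.98), the antisense transcript PITX1-AS1 (0.95) and C1QTNF6 (0.92).

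In all, 43 genes were lower and 23 higher by at least 0.5 in every clone, or 0.363% and 0.194% of those measured. The count rests on each clone, because leaving a clone out relaxes the rule. Without clone 9 it was 71 lower and 42 higher, and without clone 15 it was 70 and 60. Any negative response in all 4 clones was found for 11.5% of genes and any positive one for 10.9%. Of the 43 lower genes, 40 were also negative in all 3 control lines of replicate 1 and 29 in clones 1, 19 and 24, where 17.3% and 13.9% of all genes were. Of the 23 higher genes, 20 and 18 were positive there, against 16.2% and 12.2%. The medians of the 43 were -0.88 in these clones, -0.90 in the control lines and -0.34 in clones 1, 19 and 24, and those of the 23 were 0.84, 0.92 and 0.36. Both sets were picked by their size in these 4 clones, which by itself makes their values here large. The differences in size between the groups were not tested.

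Most androgen-repressed genes had a positive median response, although not all of these were positive in every clone. Of 13 listed genes 9 passed the filter, of which 4 were positive in all 4 clones (44.4%, against 10.9% of all genes), 4 were mixed and 1 was negative in all 4. A single member was higher by at least 0.5 in every clone, against 0.194% of all genes. The list median was 0.30, 0.30, 0.40 and 0.21 in clones 9, 10, 14 and 15 against 0.01 over all genes. OPRK1, the kappa opioid receptor, went from 10.8 to 31.5, from 39.4 to 79.7, from 31.9 to 97.3 and from 14.4 to 29. Its ranges overlapped, and the control lines reached higher signals, from 94.8 to 639.8, from 63.7 to 275.7 and from 130.3 to 639.5. OPRK1 rose by 2.20 in the control lines (limma adjusted p = 0.000235), and the responses of the 4 clones were 0.83, 0.79, 1.24 and 0.57. That difference was not tested here. PLA2G2A, a secreted phospholipase, had responses of 0.30, 0.75, 1.04 and 1.25, largest in clone 15. DDC, the enzyme that makes dopamine and serotonin from their amino acid precursors, went from 451.3 to 662.9, from 984.5 to 1391.3, from 1037.6 to 1842.9 and from 595.7 to 913.7. UGT2B17, which inactivates androgens by glucuronidation, was the member lower in all 4 clones, at -0.64, -0.25, -0.32 and -0.36 (chosen after its values were seen).

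Transcripts of DNA replication were lower in all 4 clones by small amounts. All 26 listed genes passed the filter, 21 were negative in all 4 clones (80.8%, against 11.5% of all genes) and 0 were positive in all 4. The list medians were -0.32, -0.30, -0.48 and -0.44, so clone 15 did not have the smallest difference here. FAM111B, a protease linked to replication forks, went from 836.7 to 446.9, from 594.4 to 354, from 585.2 to 348 and from 580.6 to 213.6, with its groups apart. POLE2, a subunit of DNA polymerase epsilon, had -0.57, -0.52, -0.62 and -0.85, and these were the 2 members past 0.5 in all 4 clones. GINS1, a subunit of the replicative helicase, had -0.08, -0.40, -0.79 and -0.84, and CDT1, which loads the helicase on DNA, had 0.20, -0.70, -0.90 and -1.0. Of the 20 mitosis genes 15 were negative in all 4 clones (75%, against 11.5% of all genes) and 0 positive, with medians of -0.21, -0.33, -0.36 and -0.36. KIF20A, a kinesin of cytokinesis, had -0.36, -0.35, -0.49 and -0.61, and MKI67, which encodes the Ki-67 antigen, had -0.72, -0.51, -0.34 and 0.33. The positive value of clone 15 was limited to this brightest probe set. The other MKI67 probe sets were negative in all 4 clones, with highest responses of -0.07, -0.27 and -0.26. In the control lines, where limma called 0.742% of all genes lower, it called 7 of the 26 replication genes lower (among them FAM111B, -1.48, adjusted p = 0.00907) and 1 of the 20 mitosis genes, KIF20A (-0.81, adjusted p = 0.0449). Clones 1, 19 and 24 had list medians of -0.07, -0.48 and -0.14 for replication and of -0.16, -0.36 and -0.15 for mitosis. Clone 19 was thus as low as the lowest of the 4 clones, and the lower values were not particular to these 4. In whole cultures, fewer cells of a kind and less RNA per cell cannot be told apart.

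**Figure D4:**
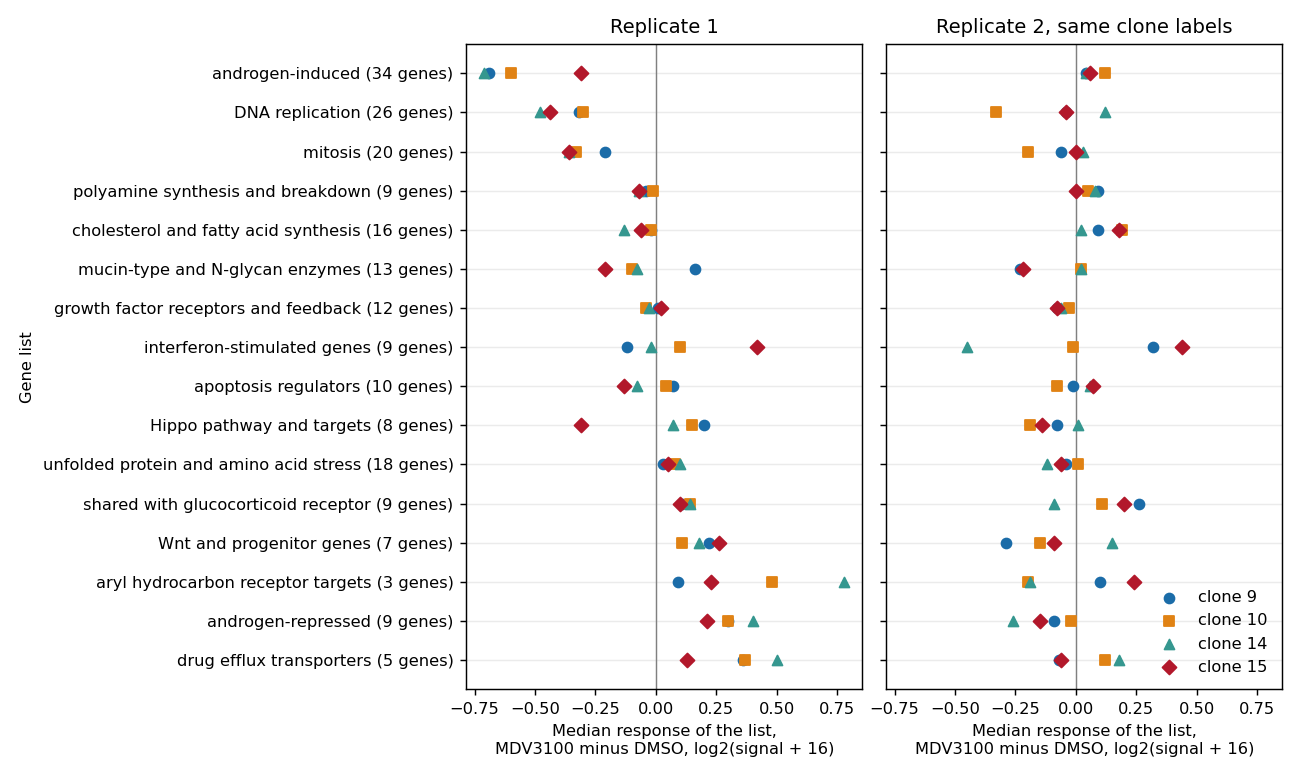
Median response to MDV3100 (log2 difference, x axis) of each gene list (y axis) in clones 9, 10, 14 and 15, with 1 symbol per clone, in replicate 1 at the left and under the same clone labels in replicate 2 at the right. In replicate 1 the androgen-induced list runs from -0.71 to -0.31 and both cell division lists lie between -0.48 and -0.21, while in replicate 2 the androgen-induced medians lie between 0.04 and 0.12.

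The remaining lists had medians near that of all genes or mixed members. Of the drug efflux transporters 5 of 8 passed the filter, with list medians of 0.36, 0.37, 0.50 and 0.13. ABCG2, an efflux pump of many drugs, went from 57.4 to 116.3, from 47.5 to 81.9, from 48.7 to 99.9 and, in clone 15, from 76 to 40.8. Growth factor receptors and their feedback genes (12 of 17) had a median of -0.03, with opposite members. IGF1R, the receptor of insulin-like growth factor 1, went from 201.9 to 134.6, from 450.4 to 274.8, from 551.4 to 276.2 and from 368.9 to 251.2. IGFBP3, which binds that growth factor, went up in signal from 315.4 to 548.1, from 1002.1 to 1568.2, from 722.1 to 1627.4 and from 146.3 to 218.5. Unfolded protein and amino acid stress genes (18 measured) had a median of 0.07. Of these, 7 were positive in all 4 clones (38.9%, against 10.9% of all genes) and 0 were negative in all 4 (against 11.5%). The stress transcription factor gene DDIT3 had 0.22, 0.76, 0.88 and 0.68. Interferon-stimulated genes (9 of 12) had medians of -0.12, 0.10, -0.02 and 0.42, where IFI6 differed most between clones (-0.20, 0.88, -0.07 and 1.06). Lists of cholesterol and fatty acid synthesis (16 of 21), mucin and N-glycan enzymes (13 of 14) and polyamine genes (9) each had a median of -0.05. Wnt and progenitor genes (7 of 10) had 0.19, glucocorticoid-shared genes (9 of 10) 0.15, and apoptosis regulators (10 of 11) and Hippo pathway genes (8 of 10) 0.04 each.

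The control lines show what the drug did in cells labelled sensitive, in arrays outside the selection. Limma, with each line as a block, called 88 genes lower (0.742%) and 52 higher (0.439%) in their 6 replicate 1 arrays. Of the 88, 65 were negative in all 4 clones (73.9%, against 11.5% of all genes), and 24 by at least 0.5 (against 0.363%). None of the 88 was positive in all 4. Of the 52, 35 were positive in all 4 (67.3%, against 10.9% of all genes), and 11 by at least 0.5 (against 0.194%). None of the 52 was negative in all 4. The clones were chosen by the fall of androgen-induced genes, which are among the 88, so part of this sharing was set by the choice. The size was smaller in the clones. The 88 genes had a median of -0.95 in the control lines and of -0.50, -0.51, -0.65 and -0.51 in clones 9, 10, 14 and 15, and the 52 had 1.02 against 0.66, 0.55, 0.53 and 0.24. The genes were called on the control lines, which by itself makes their values there large, and the difference in size was not tested. In clones 1, 19 and 24 the 88 genes had medians of -0.11, -0.31 and -0.20. Of the androgen-induced genes 13 were called lower in the control lines, and of the androgen-repressed 2 were called higher, OPRK1 and the disaccharidase gene SI (1.11, adjusted p = 0.021; chosen after its values were seen). The number of calls depends on single lines and on the pairing, with 50, 226 and 1876 calls without control 1, control 2 or control 3 and 2 calls without the block. The actin ratio of these control arrays was 3.79 ± 0.529 in DMSO and 5.11 ± 1.28 in MDV3100 (SD, n = 3 each), and its part in the calls was not tested.

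**Figure D5:**
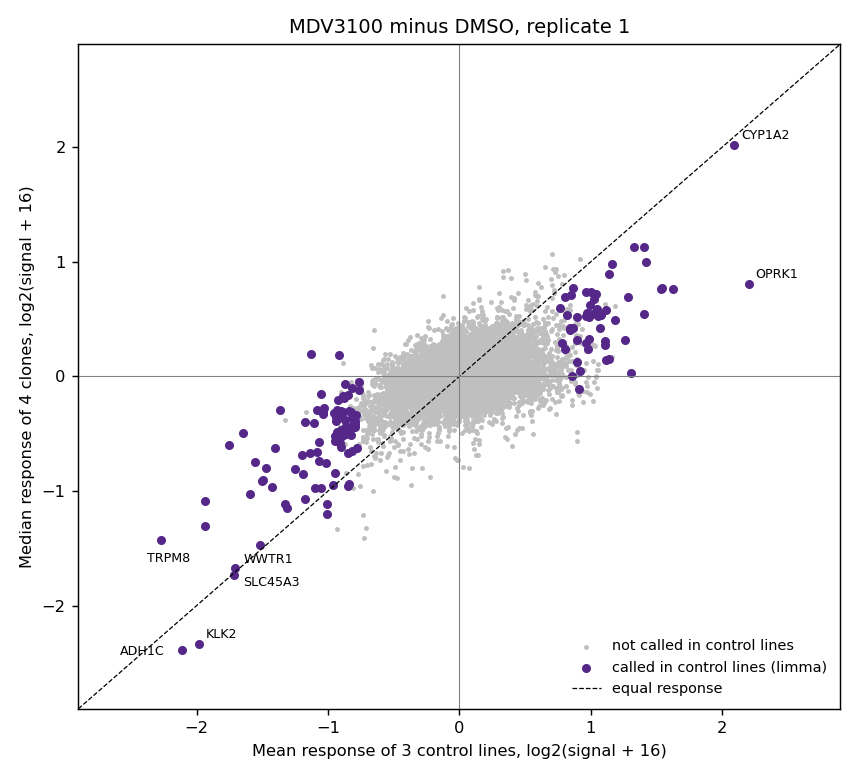
Response to MDV3100 (log2 difference) of all measured genes, with the mean of the 3 control lines on the x axis and the median of clones 9, 10, 14 and 15 on the y axis, replicate 1. Genes called by limma in the control lines are coloured, and their medians are -0.95 and 1.02 on the x axis against -0.51 and 0.54 on the y axis.

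The same clone labels in replicate 2 did not show these responses. The mean over the 34 androgen-induced genes was 0.06, 0.15, 0.04 and 0.04 in clones 9, 10, 14 and 15, against -0.93, -0.20 and -0.71 in the control lines of that set. KLK2 had DMSO signals of 2857, 2898.2, 3179.4 and 2414.6 and MDV3100 signals of 3412, 3132.6, 2148.1 and 2790.6, a mean response of 0.00 (limma adjusted p = 0.999). All 8 values lay above the highest KLK2 signal of clones 9, 10, 14 and 15 in replicate 1, 1717.6. ADH1C went from 83.4 to 62.9, from 93.3 to 61.7, from 94.1 to 244.4 and from 89.4 to 74.2, a mean of 0.05 (adjusted p = 0.99). CYP1A2 went from 19.5 to 22, from 18.2 to 18.8, from 31.2 to 25.3 and from 28.8 to 40.7, a mean of 0.07 (adjusted p = 0.929). The groups of these genes overlapped. Limma, with the clone as a block, called 1 gene lower (0.00844%) and 0 higher (0%), with 890 genes at an unadjusted p under 0.05. Of the 43 genes lower in replicate 1 only 2 were negative in all 4 clones of replicate 2, where 7.88% of all genes were, and 5 were positive in all 4. Of the 23 higher genes 3 were positive in all 4, against 6.49% of all genes. Of both sets 0 were called, with 5 of each at an unadjusted p under 0.05. The actin ratio of these arrays was lower, at 3.07 ± 0.289 in DMSO and 3.00 ± 0.121 in MDV3100 (SD, n = 4 each).

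The 1 gene called in replicate 2 was DDC, and it went against its direction in replicate 1. Its signals were 212.3, 611.3, 82 and 178.5 in DMSO and 65.3, 235, 20.9 and 64.8 in MDV3100 in clones 9, 10, 14 and 15, lower in all 4 clones. DDC fell by 1.37 ± 0.0745 (SE, n = 4 clones; limma adjusted p = 0.00706). In the control lines of replicate 2 it went from 867.4 to 1776.7, from 380.1 to 513 and from 864.9 to 1405.6. The call was lost with a pseudocount of 1, without the block, and without clone 9, 14 or 15, where limma called 0 genes.

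The difference between the responses of the 4 clones and the 3 control lines was tested in replicate 2, which the selection did not use. Limma called 3 genes lower in the clones than in the control lines (0.0253%) and 2 higher (0.0169%), with 1202 at an unadjusted p under 0.05. DDC differed by -2.08 ± 0.161 (SE; adjusted p = 0.0013), COLEC12, a scavenger receptor, by -1.67 (adjusted p = 0.0384) and ZYG11A, an adaptor of a ubiquitin ligase, by -1.39 (adjusted p = 0.0288). CCDC141, a coiled-coil protein, differed by 2.49 (adjusted p = 0.0288) and AFF3, a nuclear protein of a transcription elongation family, by 2.09 (adjusted p = 0.0171). In replicate 1 these 5 genes had the same sign in the 4 clones and in the control line mean. COLEC12, for example, went from 59.9 to 183.5, from 208 to 375.1, from 179.4 to 363.8 and from 96.5 to 129.7 in clones 9, 10, 14 and 15, and from 113.9 to 60.1, from 85.8 to 47.9, from 105.4 to 55.1 and from 143.7 to 79.8 under the same labels in replicate 2. Of the androgen-induced genes 0 were called, with 25 of 34 at an unadjusted p under 0.05. The control lines of this set were not alike, since KLK2 went from 2033.9 to 397.4 and from 2163 to 1190.5 in controls 1 and 3 and from 2359.3 to 2511.1 in control 2, whose arrays also differed from their label in replicate 1. The difference was 1.03 for KLK2 (adjusted p = 0.481), 0.32 for KLK3 (0.769), 0.75 for TMPRSS2 (0.441) and 2.12 for TRPM8 (0.0571). The number of calls was 52 without control 2 and 21 without clone 10, and 1 without clone 14, without clone 15 or without control 3.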

How the data were processed

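RNA of LNCaP cells was amplified, biotin-labelled and hybridised to arrays, per the labels' protocols. The deposited table holds a linear signal intensity for each probe set. Per the submitters' processing notes MAS5 made it, in a version not given in the sources used here. The trimmed mean (2% off each end) of each array was 150, so the arrays had been scaled and were not normalized again. Values were taken as log2(signal + 16). Probe sets with a mean at or above the median probe set mean were kept (27338 of 54675; signal 12.1). Of all probe sets, 41097 named 1 gene, 1801 several and 11777 none, and each gene took its brightest 1-gene probe set (11853 genes). All columns were matched to samples. Responses were paired by clone. Replicate 1 arrays of the control lines and all replicate 2 arrays were tested with limma 3.58.1 in R 4.3.3, with the pairing taken from the line and replicate number in the labels, and Benjamini-Hochberg adjustment over all genes (adjusted p under 0.05). The code was tested on simulated data.

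The clones, gene lists and rules were chosen with earlier results of these data known. Genes named in the text are the 10 lowest and 10 highest median responses past 0.5 in all 4 clones with a mean signal of at least 50 in the higher treatment, a set of 7 (KLK2, KLK3, TMPRSS2, FKBP5, TRPM8, OPRK1, CYP1A2), up to 4 members of each list and the genes called in replicate 2. Other members of the androgen and replication lists named in the text (RAB3B, PTGER4, ACP3, STEAP1, STEAP2, ZBTB10, MAF, LAMA1, PMEPA1) were chosen after their values were seen. Alternatives covered the pseudocount, filter, normalization, probe set choice, block, variance trend and each clone or control line left out. The number of arrays limits the precision.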

Additional observations from a re-analysis of the deposited data

Results flagged for a closer look

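For some named genes the response of 1 clone lay far from those of the other 3 in replicate 1, with a gap above 0.829 of the range of the 4. This is a description, since the selection used these responses, some genes were named for them and all share the same arrays. Clone 15, whose MDV3100 array had the highest median signal, lay apart with responses of -0.29 for KLK2, -0.02 for KLK3, -0.64 for SLC45A3, -0.74 for WWTR1, -0.52 for C1orf116, -0.70 for ABCG2, 0.55 for the spermidine synthase gene SRM and 0.75 for the metallothionein gene MT2A. Clone 10 lay apart for TRPM8 (-2.16), and clone 9 for SPRY1, a feedback inhibitor of receptor tyrosine kinases (0.06), and ASNS, asparagine synthetase (-0.19). The responses of the 4 clones differed from those of the control lines in replicate 2, by limma's test of the difference, for AFF3 (2.09), CCDC141 (2.49), COLEC12 (-1.67), DDC (-2.08) and ZYG11A (-1.39).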

How the results depend on the processing

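All 236 recomputed values of single genes kept their sign, and 18 moved by more than the spread between clones. Medians that moved by over 1.5 times were, with a pseudocount of 1, ADH1C (-3.63), PHLDB2 (-2.26), TRPM8 (-2.28), ST6GALNAC1 (-2.04), MSMB (-2.19) and OPRK1 (1.23), and IL1RN with the mean of all probe sets (0.66). Of 160 list medians 145 moved by less than the spread between clones. Counts moved most. Genes past 0.5 in all 4 clones numbered 39 higher with a pseudocount of 1, and 27 lower and 13 higher with a filter at the upper quartile. Leaving out a clone gave 45 to 71 lower and 27 to 60 higher. Calls in the control lines numbered 88 and 71 with pseudocounts of 1 and 32, 0 without a filter (2189 at unadjusted p under 0.05) and 38 at the upper quartile filter, and 50 to 1876 with a line left out. Without the line or clone as a block limma called 2 genes there and 0 in the clones of replicate 2 (1 with it). Calls in the clones of replicate 2 numbered 0 with a pseudocount of 1 (882 at unadjusted p under 0.05), 3 at the upper quartile filter, 5 with a variance trend and 0 to 2 with a clone left out. Calls for the difference in replicate 2 numbered 1 and 17 with pseudocounts of 1 and 32, 1 without a filter, 8 at the upper quartile filter, 3 with quantile normalization, 14 with the mean of all probe sets, 39 with a variance trend and 1 to 52 with a line left out. List medians that moved were growth factor genes (0.05 without a filter, 0.02 with the mean of all probe sets), drug efflux genes (0.12 without a filter, 0.14 at the upper quartile filter) and apoptosis regulators (-0.07 at that filter). With the mean of all probe sets they were 0.41 for androgen-repressed, 0.09 for glucocorticoid-shared, 0.11 for Wnt and 0.11 for unfolded protein genes. With a clone left out the androgen-repressed median was 0.21 to 0.36, the glucocorticoid-shared 0.11 to 0.18 and the polyamine -0.07 to -0.01. The causes were not tested.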
